A study of Homo sapiens with 34 samples.

Results

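The active mark H3K27ac and the Polycomb mark H3K27me3 were compared in control KELLY cells. All peak lists of these marks from DMSO-treated cells were taken, 3 of H3K27ac and 3 of H3K27me3, which makes 6 of the 30 peak lists of the series (34 samples with the inputs). Peaks on chromosomes 1 to 22 and X were used.

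The series had profiled histone marks by chromatin immunoprecipitation followed by sequencing (ChIP-seq) to follow the loss of RUNX1T1 in neuroblastoma. KELLY is a long-established cell line of human neuroblastoma, in which MYCN is amplified. All 6 lists came from cells that carried a short hairpin RNA against RUNX1T1 under doxycycline control and had received the solvent DMSO for 72 h, so the hairpin was present but not induced. The 15 lists from doxycycline-treated cells were not used here, and the labels do not say whether the 3 replicates of a mark were separate cultures, so that p-values measure the spread between these samples only.

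Acetyl and methyl groups compete for the same lysine of histone H3. The acetyltransferases p300 and CBP place H3K27ac at active promoters and enhancers, whereas the EZH2 subunit of Polycomb repressive complex PRC2 trimethylates the lysine at silenced developmental genes, and the CBX proteins of PRC1 read it. A nucleosome holds a pair of H3 tails, and a culture holds many cells, so a peak of each mark over the same bases need not come from the same histone tail or cell.

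Almost no sequence carried both marks, although the coverage of both was higher where genes were denser. In the 9 comparisons of an H3K27ac list with an H3K27me3 list, 0.254 to 0.85 Mb was shared. The Jaccard index (shared length over joint length) was 0.00143 on average between marks, with a range of 0.00108 to 0.0018. Between lists of the same mark it was 0.555 to 0.637 for H3K27ac and 0.322 to 0.44 for H3K27me3. No index between marks came near those within a mark. The difference of the means, 0.479, gave an exact one-sided permutation p of 0.1 over the 10 splits of 6 lists into 3 and 3, the smallest p that this design allows. The shared length was 0.0466 to 0.0724 of the product of both covered shares, which is the length that placement without regard to the other mark would share.

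The H3K27ac lists resembled each other more than the H3K27me3 lists did. H3K27ac covered 148.1, 124.3 and 112.7 Mb in replicates 1, 2 and 3, or 4.41% ± 0.62 (SD, n = 3) of the sequenced bases. H3K27me3 covered 324.8, 122.7 and 126.2 Mb, or 6.57% ± 3.97 (SD, n = 3). Replicate 1 of H3K27me3 thus stood apart from all other lists in covered length, and the other H3K27me3 lists lay within the range of H3K27ac. Peak number was 71603, 55153 and 64737 for H3K27ac and 62490, 84725 and 157087 for H3K27me3. The median peak was 1241, 1429 and 1106 bp wide for H3K27ac and 1898, 571 and 410 bp for H3K27me3. The groups overlapped in length, number and width, in number and width only through H3K27me3 replicate 1. The fragment length estimated by the peak caller was 256 bp in H3K27me3 replicate 1 and 112 and 105 bp in replicates 2 and 3, against 228 to 278 bp in H3K27ac. Reads were 101 bp long in all libraries. The estimates of H3K27me3 replicates 2 and 3 lay near this length, and that of replicate 1 within the H3K27ac range. The part of the fragment estimate in the lengths and widths was not tested. After removal of duplicates the libraries held 72.0 to 84.9 M reads, and 4% to 20% of reads had been redundant.

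**Figure D1:**
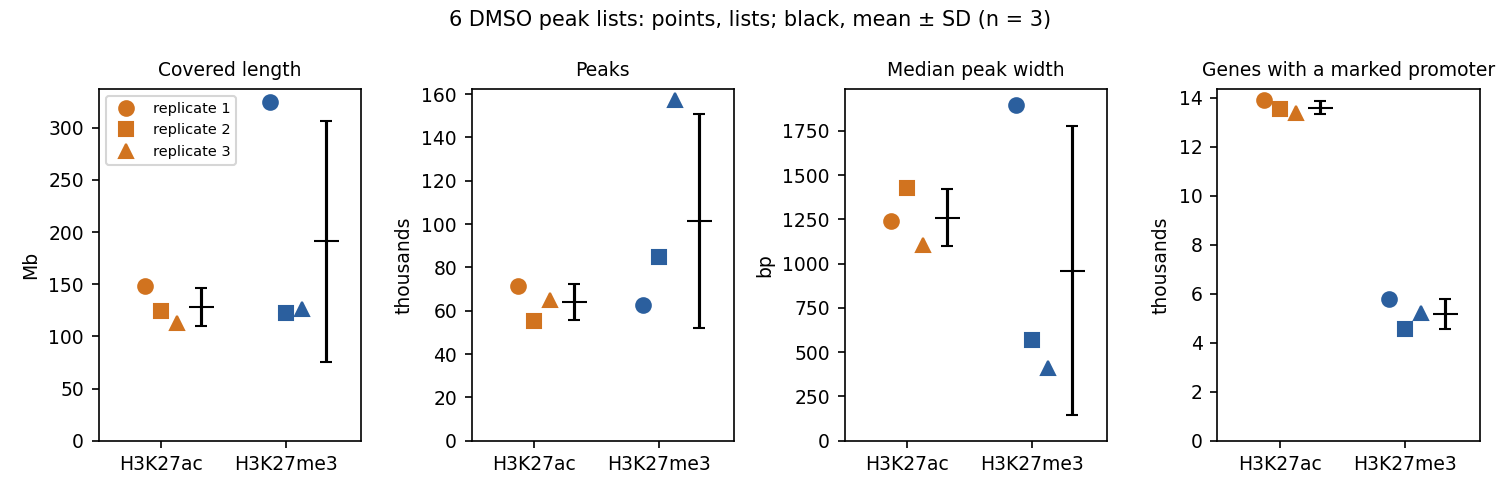
Covered length (Mb), number of peaks (axis in units of 1000), median peak width (bp) and genes with a marked promoter (axis in units of 1000) in each DMSO list. Points are lists and black marks are the mean ± SD of 3 lists. H3K27me3 replicate 1, at 324.8 Mb, lies above all other lists in covered length, whereas the marks do not overlap in marked promoters.

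The exact two-sided permutation test over the 20 assignments of 3 of 6 lists to a mark cannot give a p under 0.1. The log2 ratio of H3K27ac over H3K27me3 was -0.43 for covered length (exact permutation p = 0.6, n = 3 per mark), -0.57 for peak number (p = 0.3, exact permutation) and 0.71 for median width (p = 0.4, exact permutation). Without H3K27me3 replicate 1 the ratio of covered length was 0.04 (exact permutation p = 0.9), so its direction rested on that list. The ratios of peak number and median width were then -0.86 and 1.37, each at an exact permutation p of 0.1 and without overlap of the lists.

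What separated the marks across all lists was where the covered bases lay. Promoters, taken as 1 kb either side of every annotated start of a protein-coding gene, held 21.0%, 23.4% and 23.1% of the H3K27ac length and 5.18%, 8.35% and 7.43% of the H3K27me3 length. Every H3K27ac list lay above every H3K27me3 list, by 15.5 percentage points on average, at an exact permutation p of 0.1 (0.133 after Benjamini-Hochberg adjustment over 4 classes of sequence). Sequence between genes made up 33.1% ± 0.418 (SD, n = 3) of H3K27ac and 58.9% ± 1.49 (SD, n = 3) of H3K27me3, again without overlap (exact permutation p = 0.1, adjusted 0.133). In the genome, promoters held 4.33% and intergenic sequence 54.8% of bases. Introns held 41.1% of H3K27ac and 31.1% of H3K27me3, a difference of 9.96 points (exact permutation p = 0.1, adjusted 0.133). Exons, at 3.37% and 2.96%, overlapped between the marks (exact permutation p = 0.3).

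Consensus regions, merged intervals with a peak from all 3 lists of a mark, numbered 39263 for H3K27ac and 21288 for H3K27me3. They covered 141.7 and 261.3 Mb, with medians of 2.456 and 6.826 kb. Without H3K27me3 replicate 1 the consensus of that mark covered 126.1 Mb in 45593 regions with a median of 1.47 kb, so its greater length and width rested on that list. Of the H3K27ac regions 540 (1.38%, 95% exact Clopper-Pearson interval 1.26 to 1.5%) shared at least 1 base with an H3K27me3 region. Of the H3K27me3 regions 518 (2.43%, 2.23 to 2.65%) did so. Without H3K27me3 replicate 1 these shares were 0.932% and 0.875%, so the second fell by over 1.5 times. The intervals cover the counting of regions only.

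The regions that did share bases had the makeup of promoters. Of the 540 H3K27ac regions, 61.7% touched a protein-coding promoter and 89.3% met a consensus region of H3K4me3, the mark of gene starts. Over all H3K27ac regions these shares were 36.4% and 40.0%. Of the 518 H3K27me3 regions, 90.2% met H3K4me3, against 13.6% of all H3K27me3 regions. H3K4me1, common at enhancers, was at 87.0% of the sharing H3K27ac regions and 90.9% of all of them.

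Sequences of the promoters that stand for the classes described later are shown first. Each is the 300-base window around the start that RefSeq gives (GRCh38.p14, the primary sequence of hg38), with each CG dinucleotide in capitals, because the classes differed in CG content. UBTF, an activator of ribosomal RNA genes, carried the strongest H3K27ac of any promoter marked by H3K27ac alone, by rank of the peak caller's q-value. TYMP, which encodes thymidine phosphorylase, led the promoters with both marks. HOXC4 and HOXA11 are body-axis genes that led the HOX promoters of the opposite classes. The windows lie at chr17:44220833-44221132 (minus strand), chr22:50530036-50530335 (minus), chr12:54016638-54016937 (plus) and chr7:27185183-27185482 (minus), in this order. The UBTF window ended 494 bases inside the GENCODE gene, at another start, and the TYMP window lay 4 bases upstream of the GENCODE start.
UBTF: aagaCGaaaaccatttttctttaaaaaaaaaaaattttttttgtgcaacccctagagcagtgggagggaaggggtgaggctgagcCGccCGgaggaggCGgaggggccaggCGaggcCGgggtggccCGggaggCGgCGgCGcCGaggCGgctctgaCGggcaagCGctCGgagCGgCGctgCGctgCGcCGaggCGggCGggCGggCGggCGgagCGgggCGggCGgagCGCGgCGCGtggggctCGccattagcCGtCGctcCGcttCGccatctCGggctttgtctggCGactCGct
TYMP: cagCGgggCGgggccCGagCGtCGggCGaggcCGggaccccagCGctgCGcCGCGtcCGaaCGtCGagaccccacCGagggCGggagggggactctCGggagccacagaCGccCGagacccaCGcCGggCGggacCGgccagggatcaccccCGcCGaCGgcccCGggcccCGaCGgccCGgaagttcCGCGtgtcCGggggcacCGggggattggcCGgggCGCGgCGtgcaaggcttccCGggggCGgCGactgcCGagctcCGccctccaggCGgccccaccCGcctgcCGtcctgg
HOXC4: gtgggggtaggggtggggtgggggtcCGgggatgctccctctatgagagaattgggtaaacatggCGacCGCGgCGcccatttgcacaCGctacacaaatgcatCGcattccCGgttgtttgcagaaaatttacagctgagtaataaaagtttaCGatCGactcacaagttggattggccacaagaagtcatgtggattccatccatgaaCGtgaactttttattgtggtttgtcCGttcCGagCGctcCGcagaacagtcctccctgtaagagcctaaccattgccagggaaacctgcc
HOXA11: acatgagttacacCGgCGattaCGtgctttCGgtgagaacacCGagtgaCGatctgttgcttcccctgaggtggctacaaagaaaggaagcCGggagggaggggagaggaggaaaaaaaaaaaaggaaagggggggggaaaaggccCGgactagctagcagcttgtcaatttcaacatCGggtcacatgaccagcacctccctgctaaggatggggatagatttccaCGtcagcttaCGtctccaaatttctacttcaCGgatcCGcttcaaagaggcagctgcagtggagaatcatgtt

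The windows held 40, 46, 15 and 13 CG dinucleotides in the order shown. All 300 bases of the UBTF and HOXC4 windows lay in peaks of each H3K27ac list and none in an H3K27me3 peak. The reverse held for HOXA11. All 300 bases of the TYMP window lay in H3K27me3 peaks of each list and none in H3K27ac, whose peaks lay elsewhere within its promoter windows. Other genes of the named set had windows that did not carry the mark of their class. The HELZ2 window (H3K27me3 only) lay wholly in H3K27ac peaks of replicates 1 and 3 and in no H3K27me3 peak, and the NPLOC4 window (both marks) in no H3K27me3 peak.

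Across 19970 protein-coding genes, 12072 (60.5%) had H3K27ac only at a promoter, 1156 (5.79%) both marks, 3600 (18%) H3K27me3 only and 3142 (15.7%) neither, from the consensus regions. Single lists gave 13890, 13546 and 13358 genes with H3K27ac and 5787, 4559 and 5207 with H3K27me3. Each H3K27ac list marked more than 2 times as many promoters as any H3K27me3 list. The log2 ratio was 1.40 (exact two-sided permutation p = 0.1, the smallest possible, adjusted 0.3 over 6 tests). It was 1.48 without H3K27me3 replicate 1.

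The classes were not equally stable across lists. Taking the lists with the same replicate number together, 1871, 1146 and 1534 genes had both marks and 2164, 3011 and 2939 had neither. H3K27ac only held 12081 ± 293 genes and H3K27me3 only 3667 ± 252 (SD, n = 3). Of the 12072 genes with H3K27ac only, 92.0% had that class in all 3 replicate numbers. This share was 84.2% for H3K27me3 only, 71.4% for both and 61.3% for neither. Without H3K27me3 replicate 1 the consensus gave 877 genes with both marks and 3220 with H3K27me3 only.

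Both marks at a gene seldom meant both on the same bases. Of the 1156 genes, 337 (29.2%) had consensus regions of the marks that shared bases there. In the other 819 the nearest regions lay 2.219 kb apart at the median. In 469 genes the marks were at different start sites only, so that one start of the gene had H3K27ac and another H3K27me3. Taking only the annotated 5′ end of each gene left 538 genes with both.

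CG content ordered the classes. The median ratio of observed to expected CpG in the 500 bp either side of the gene start was 0.757 for H3K27ac only, 0.728 for both marks, 0.466 for H3K27me3 only and 0.242 for neither. By list, the median over marked promoters was 0.751, 0.753 and 0.754 for H3K27ac and 0.544, 0.563 and 0.579 for H3K27me3. The lists of the marks did not overlap, and the difference was 0.19 (exact two-sided permutation p = 0.1, adjusted 0.3 over 6 tests). RefSeq windows of 300 bases, matched for 15316 genes, held a median of 26 CG dinucleotides for H3K27ac only, 25 for both, 12 for H3K27me3 only and 4 for neither, against 22 over all matched promoters. The CG search reads the same on both strands, and 1.87% of all matched windows held none.

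H3K27me3-only promoters were of several kinds. Their CpG ratio had quartiles of 0.237 and 0.744, and 39.9% exceeded 0.6. Of the 1435 above 0.6, 71.4% (exact interval 69.0 to 73.8%) also carried H3K4me3. Of the 2165 at 0.6 or less, 18.7% (17.1 to 20.4%) did. H3K4me3 with H3K27me3 at one promoter is known as a bivalent state. H3K4me3 was at 96.0% of the promoters with H3K27ac only, 97.4% of those with both, 39.7% of those with H3K27me3 only and 11.8% of those with neither. H3K4me1 was at 46.6% of H3K27me3-only promoters and 85.5% of H3K27ac-only ones. The H3K4 marks were taken from the consensus of their own 3 DMSO lists.

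**Figure D2:**
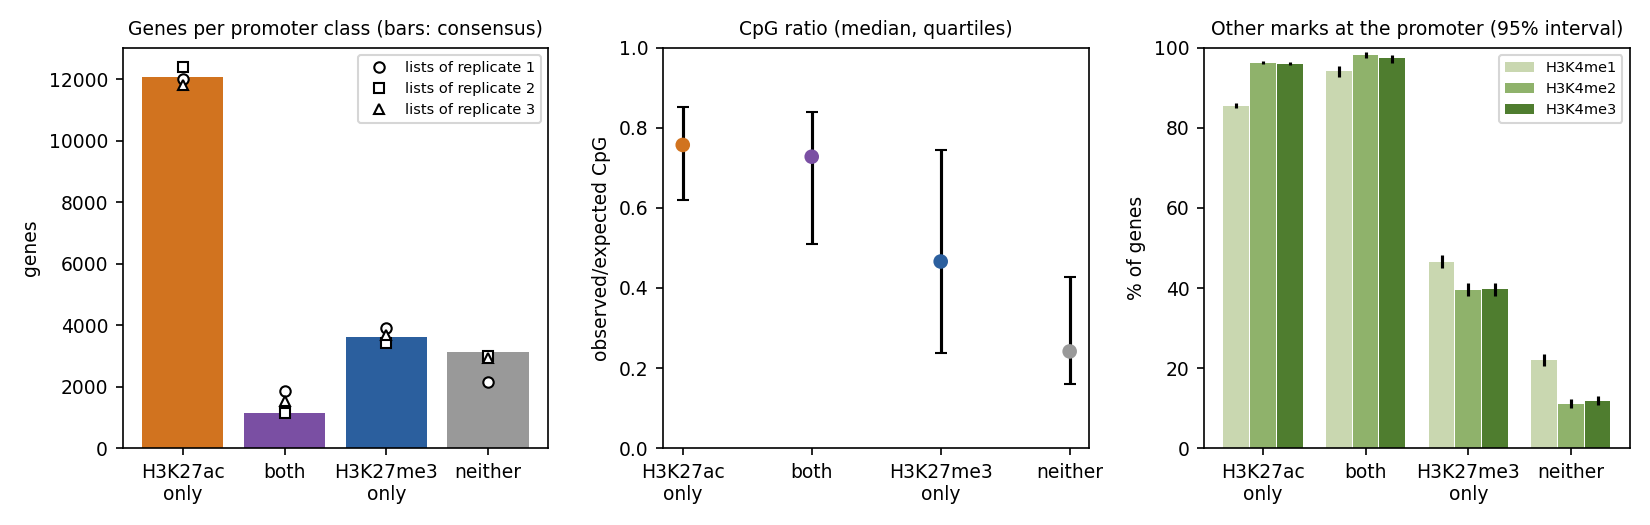
Genes per promoter class (bars, consensus; symbols, lists of the same replicate number), CpG ratio (median and quartiles) and percentage of genes with H3K4me1, H3K4me2 or H3K4me3 (exact 95% interval) by class. H3K4me3 is at 96.0% and 97.4% of the classes with H3K27ac but at 39.7% of H3K27me3-only promoters.

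The adrenergic identity genes of neuroblastoma were marked by H3K27ac alone. All 15 transcription factors of the adrenergic core list (HAND2, GATA3, ISL1, TFAP2B and others) were in this class, against 60.5% of all genes. Each had an H3K27ac peak in 3 of 3 lists and an H3K27me3 peak in none. Earlier studies cited by the paper linked the core factors of high-risk neuroblastoma to super-enhancers, large enhancer regions. A list defined by active enhancers can favour H3K27ac by its definition, so the comparison with all genes is only descriptive. The 12 genes of catecholamine synthesis and storage were likewise in the H3K27ac-only class, including TH, the rate-limiting enzyme, and DBH, which makes noradrenaline. DDC, the decarboxylase of the pathway, also had an H3K27me3 peak in 1 list. CYB561, a vesicle membrane electron carrier of this list, was among the 3 strongest H3K27ac-only promoters, with peaks of 35.2, 37.9 and 31.6 kb.

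The other strong H3K27ac-only promoters were UBTF and IGF2BP1. Like CYB561 they lie on chromosome 17, and the part of copy number in this ranking by q-value was not tested. UBTF (chr17:44205033-44221626) had fold enrichments of 16.9, 14.5 and 9.44 in peaks of 7.135, 6.041 and 5.919 kb. IGF2BP1 (chr17:48997385-49056145), an RNA-binding protein of fetal tissues, had 18.8, 15.7 and 10.1. All 80 genes of cytosolic ribosomal proteins were H3K27ac only, against 60.5% of all genes.

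Regulators of other lineages mostly carried H3K27me3. Of 24 regulators of other neural lineages, 18 had H3K27me3 only, against 18% of all genes, 2 had both, 4 had H3K27ac only and none had neither. PAX6 and OTX2 of the forebrain, OLIG2 of oligodendrocytes and EN1 of the midbrain had H3K27me3 peaks in 3 of 3 lists and H3K27ac in none. Both marks were at SOX2, a regulator of neural stem cells, and DLX1 of forebrain interneurons. H3K27ac alone was at NEUROD1, NKX6-1, DLX5 and SOX10, the last, a neural crest regulator, without H3K4me3. Of the 18 with H3K27me3 only, 11 also had H3K4me3, against 39.7% of all promoters of this class. Of promoters of this class with a CpG ratio over 0.6, 71.4% had H3K4me3, and the median ratio of the 24 regulators was 0.747.

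Regulators of muscle, blood, liver, gut and kidney gave 17 of 27 with H3K27me3 only, against 18% of all genes, 3 with both (PAX5, CEBPA and FOXA3), 4 with H3K27ac only (MYOG, CDX1, EBF1 and SPI1) and 3 with neither (MYF5, MYF6 and GATA1). The liver regulator HNF4A, the kidney regulator PAX2 and the blood regulator TAL1 had H3K27me3 in 3 lists. A consensus region can reach a promoter that not every list's own peak touches, as at MYOD1 with peaks of 2 lists. The 20 transcription factors of the mesenchymal state of neuroblastoma were split, with 10 in the H3K27ac-only class, against 60.5% of all genes (JUN, FOSL2 and TWIST1 among them), 8 in H3K27me3 only, against 18% (PRRX1, RUNX1 and RUNX2 among them), TBX18 with both and SNAI2 with neither. MEOX1, in the second of these groups, had an H3K27me3 peak of its own in 1 list. The share with H3K27ac only, 50%, was thus near that of all genes.

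The HOX genes were divided by cluster. All 11 HOXA and all 10 HOXB genes had H3K27me3 only, against 18% of all genes (60.5% of all genes had H3K27ac only). HOXC had 3 of 9 genes with H3K27ac only (HOXC4, HOXC5 and HOXC8), 2 with both (HOXC6 and HOXC9) and 4 with H3K27me3 only (HOXC10 to HOXC13). HOXD had 5 of 9 with H3K27ac only (HOXD1, HOXD3, HOXD8, HOXD9 and HOXD12), HOXD11 and HOXD13 with both, HOXD10 with H3K27me3 only and HOXD4 with neither. The H3K27ac-marked HOX genes therefore lay in HOXC and HOXD alone. At HOXC4 the H3K27ac peaks were 12.2, 6.368 and 9.396 kb wide, with fold enrichments of 10.6, 10.4 and 8.23. At HOXA11 the H3K27me3 peaks were 216.7, 109.4 and 14.1 kb wide, with 5.73, 4.84 and 3.56. Of the 26 HOX genes with H3K27me3 only, 9 had H3K4me3, against 39.7% of all promoters of this class. It was at 71.4% of promoters of this class with a CpG ratio over 0.6, and the median ratio of the 39 HOX genes was 0.695.

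The enzymes and readers of the marks were mostly in the H3K27ac-only class, which held 60.5% of all genes. Of 14 writers and erasers of H3K27me3 found in the annotation, 12 had H3K27ac only, among them the methyltransferases EZH1 and EZH2, SUZ12, EED and the demethylase KDM6A. KDM6B, another demethylase, and EPOP, a PRC2 partner, had both marks. Of 16 writers, readers and erasers of H3K27ac, 14 had H3K27ac only (EP300, CREBBP, BRD2 and HDAC1 to HDAC3 among them), BRD3 had both and the testis gene BRDT neither. Of 18 genes of PRC1 and its CBX readers, 15 had H3K27ac only and 3 had both, BMI1 and CBX7 among them. EZH2 and EZH1 each had an H3K27me3 peak in 1 of 3 lists.

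Families in tandem arrays showed all 4 outcomes, to be read against 60.5% of all genes with H3K27ac only, 5.79% with both, 18% with H3K27me3 only and 15.7% with neither. The keratins, structural proteins of epithelia, had 35 of 55 genes with H3K27me3 only, 9 with H3K27ac only and 11 with neither. The olfactory receptors had 114 of 400 with H3K27me3 only, 285 with neither and 1 (OR1F1) with both, at a median CpG ratio of 0.168. At a q of 0.001 or less, 26 of the 400 olfactory receptors had H3K27me3. At that cutoff 403 of all 19970 genes had both marks and 2013 had H3K27me3 only. The clustered protocadherins, cell-surface proteins that give neurons an identity, had 42 of 53 with neither mark, 8 with H3K27ac only and 3 with H3K27me3 only. At a q of 0.001 or less 0 protocadherins had H3K27me3, and with lists trimmed to equal peak number or length 1 did. The zinc finger genes of chromosome 19 had 208 of 246 with H3K27ac only, 15 with both, 5 with H3K27me3 only and 18 with neither, and 7 rather than 20 with H3K27me3 when replicate 1 of that mark was left out. Members of these families resemble each other in sequence, and whether reads could be assigned to single members was not tested.

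**Figure D3:**
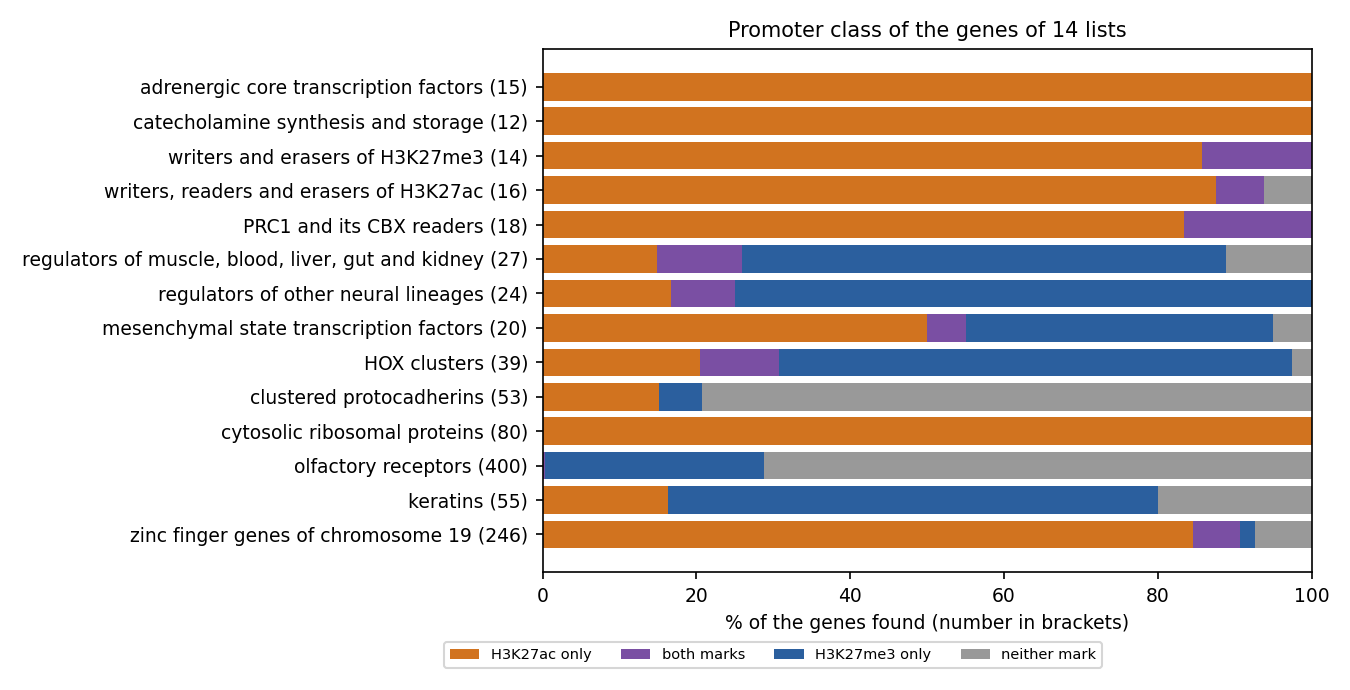
Share of the genes of each of 14 lists (percent, number of genes found in brackets) in the 4 promoter classes. Adrenergic factors, catecholamine genes and ribosomal proteins are in the H3K27ac-only class throughout, against 60.5% of all genes. H3K27me3 only takes 18 of 24 regulators of other neural lineages and 26 of 39 HOX genes, against 18% of all genes.

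The strongest promoters with H3K27me3 only were NOTUM, WNT7B and HELZ2. NOTUM (chr17:81952507-81961840), a secreted WNT inhibitor, had H3K27me3 peaks of 4.058, 3.403 and 2.519 kb with fold enrichments of 5.89, 5.35 and 3.93, and 1 H3K27ac list had a peak there. WNT7B (chr22:45920366-45977162), a WNT ligand, had 6.33, 5.33 and 3.64 and no H3K27ac peak. HELZ2 (chr20:63558086-63574239), a helicase co-activator, had 6.13, 4.86 and 3.13 and H3K27ac peaks in 2 lists. All 3 also had H3K4me3.

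Among promoters with both marks TYMP, ENSG00000283128 and NPLOC4 ranked highest by the weaker of the marks. TYMP (chr22:50525752-50530032) had H3K27ac fold enrichments of 9.77, 10.3 and 6.48 and H3K27me3 fold enrichments of 5.79, 4.37 and 3.51. At NPLOC4 (chr17:81556887-81648465), a cofactor of the p97 ATPase, they were 8.05, 10.6 and 6.21 and 6.26, 5.26 and 3.54. At ENSG00000283128 (chr7:155474256-155644406) they were 13.6, 11.7 and 7.54 and 5.84, 4.48 and 3.3.

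Around a consensus region the other mark was depleted at short range and enriched at 50 to 200 kb, the farthest distance measured. Relative coverage is the covered share of a piece of sequence divided by that of the genome. Inside H3K27ac regions the relative coverage of H3K27me3 was 0.0445, 0.0581 and 0.0563 in its 3 lists. It was 0.168 to 0.196 within 1 kb of the edge, 0.672 to 0.803 at 10 to 20 kb, 0.954 to 1.12 at 20 to 50 kb and 1.62 to 1.75 at 100 to 200 kb. H3K27me3 thus reached the genome level at 20 to 50 kb from H3K27ac and exceeded it at 50 to 200 kb. Sequence farther than 200 kb was not measured. Around H3K27me3 regions, H3K27ac was at 0.0443 to 0.0498 inside, 0.365 to 0.393 within 1 kb, 0.879 to 1.02 at 10 to 20 kb and 1.47 to 1.55 at 100 to 200 kb. H3K27ac was therefore nearer to its genome level within 1 kb of H3K27me3 than H3K27me3 was within 1 kb of H3K27ac.

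From an H3K27ac region the nearest H3K27me3 region was 174 kb away at the median, with quartiles of 51.2 and 501 kb. The nearest other H3K27ac region was 8.94 kb away. From an H3K27me3 region the nearest H3K27ac region was 85.7 kb away and the nearest other H3K27me3 region 3.73 kb. Of H3K27ac regions 1.91% lay within 1 kb of H3K27me3 without sharing bases, and 11.9% over 1 Mb from it. Of H3K27me3 regions 1.52% lay over 1 Mb from H3K27ac. Distances taken between single lists had medians of 31.6 to 151 kb from H3K27ac and 68.7 to 105 kb from H3K27me3.

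Along chromosomes neighbouring regions were mostly of the same mark. Of neighbouring consensus regions, 57.4% were both H3K27ac, 27.7% both H3K27me3 and 15.0% of different marks (9055 pairs). No shares for a random order of the 39263 H3K27ac and 21288 H3K27me3 regions were computed beside these. The part of domains that peak calling split into several regions was not tested. H3K27ac occurred in 4536 runs with a median of 3 regions and a longest of 169. H3K27me3 occurred in 4542 runs with a median of 2 and a longest of 100. A single region made up 1370 and 2055 of these runs.

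In bins of 1 Mb the covered share of both marks was higher where genes were denser. In bins with no gene start relative coverage was 0.258 to 0.312 for H3K27ac and 0.257 to 0.423 for H3K27me3. In bins with 20 starts or more it was 2.17 to 2.56 and 2.25 to 3.15. The ranges of the marks overlapped in all 5 classes of gene density. Gene-rich bins, with 10 starts or more (664 of 2921), held 42.9%, 45.6% and 40.2% of the H3K27ac length and 40.7%, 51.6% and 45.6% of the H3K27me3 length, a difference of -3.07 percentage points (exact two-sided permutation p = 0.4, n = 3 per mark). With lists trimmed to equal covered length it was -8.76 points (exact permutation p = 0.1), without overlap of the lists, and at a q of 0.001 or less -10.3 points (exact permutation p = 0.2).

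The correlation of the marks changed sign with the size of the bin. Over bins, Spearman's rho between the mean covered shares was -0.213 at 10 kb (n = 291639), -0.232 at 50 kb (n = 58325), -0.193 at 100 kb (n = 29165), 0.0115 at 500 kb (n = 5845), 0.135 at 1 Mb (n = 2921) and 0.394 at 5 Mb (n = 586). At 1 Mb the 9 pairs of lists gave 0.0732 to 0.201, and at 50 kb all were negative (-0.241 to -0.15). At 10 kb the pairs gave -0.186 to -0.121, all weaker than the rho of the mean shares. Bins are not replicates and share their libraries, gene density and base composition. Over 1 Mb bins, H3K27ac had a rho of 0.549 with gene starts and 0.652 with GC content, and H3K27me3 0.508 and 0.550. Within bins of like gene density the correlation at 1 Mb was negative, at -0.206 (no starts, n = 438), -0.152 (1 to 4, n = 1087), -0.204 (5 to 9, n = 732), -0.220 (10 to 19, n = 437) and -0.219 (20 or more, n = 227). Without H3K27me3 replicate 1 these were -0.131, -0.0584, -0.0994, -0.113 and -0.0794, negative still but nearer to 0.

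**Figure D4:**
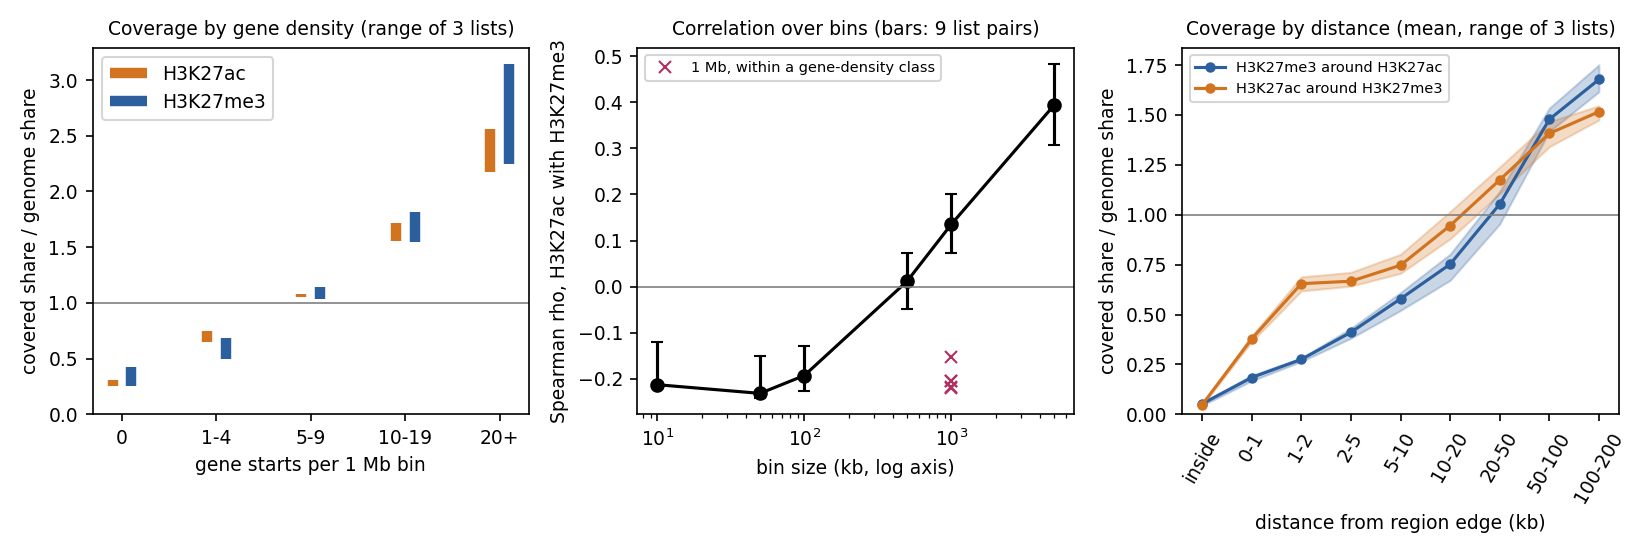
Relative coverage (covered share over that of the genome) by gene starts per 1 Mb bin, Spearman's rho of the marks against bin size in kb on a log axis, and relative coverage by distance in kb from the edge of a consensus region of the other mark. Bars and bands span 3 lists, or 9 pairs of lists for rho, and crosses are rho within a class of gene density. At 10 kb the rho of the mean shares, -0.213, lies outside the pairs (-0.186 to -0.121), and the bar is drawn from it. The correlation goes from -0.232 at 50 kb to 0.394 at 5 Mb.

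Dividing each list by its mean over bins, H3K27ac was higher than H3K27me3 in all lists in 1529 bins (52.3%), and H3K27me3 higher in all lists in 881 (30.2%). The other 511 overlapped. Above or below the median of each mark, 794 bins were high in both, with 13.7 gene starts per Mb and a median GC content of 44.6%. Bins low in both numbered 793, with 2.08 starts and 36.7% GC. The 667 bins high in H3K27ac only and the 667 high in H3K27me3 only had 5.60 and 5.49 starts per Mb. These last groups therefore had like gene density but opposite marks.

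Neighbouring 1 Mb bins of chromosome 16 held the highest share of each mark. At chr16:85000001-86000000, with GSE1, COX4I1 and the interferon regulator IRF8, H3K27ac covered 51.7%, 48.5% and 37.0% and H3K27me3 21.1%, 18.6% and 16.2%. At chr16:86000001-87000000, with the forkhead genes FOXF1, FOXC2 and FOXL1, H3K27me3 covered 92.9%, 69.4% and 55.3% and H3K27ac 0.310%, 0.244% and 0.299%. The first bin thus held both marks, and H3K27ac was nearly absent from the next. H3K27ac was next highest at chr9:133000001-134000000, which holds DBH (48.5%, 49.3% and 33.3%, with H3K27me3 at 19.3%, 16.1% and 14.1%), and at chr2:29000001-30000000, which holds the neuroblastoma receptor gene ALK (43.6%, 34.9% and 35.3%). At ALK, H3K27me3 covered 0%, 0% and 0.2% of the bin. The next bins of H3K27me3 were chr7:155000001-156000000 with SHH and EN2 (69.4%, 60.8% and 55.2%) and chr12:4000001-5000000 with CCND2, FGF23 and KCNA1 (76.4%, 53.3% and 47.6%).

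Some bins were rich in both. At chr19:1000001-2000000, with 39 gene starts, H3K27ac covered 30.8%, 28.8% and 18.9% and H3K27me3 25.6%, 22.6% and 18.6%. At chr7:1000001-2000000 the values were 26.7%, 26% and 13.9% and 38.8%, 32.9% and 29.2%. At chr9:136000001-137000000, which holds NOTCH1, they were 24.7%, 24.2% and 15.3% and 37.1%, 33.8% and 31.7%. All 3 bins had over 56% GC.

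Of the 5 widest regions of each mark, 1 held any consensus bases of the other. The widest H3K27ac region, chr15:74166780-74323594 (156.8 kb), held the starts of ISLR, STRA6 and CCDC33 and was covered to 99.7%, 99.6% and 95.9% by the lists. The next lay in SLIT3 (124.6 kb), CLPB (110.1 kb) and ZMIZ1 (91.2 kb) and at DLK1 (89.6 kb), a surface protein of neuroendocrine cells. The widest H3K27me3 region, chr17:48374827-48816846 (442.02 kb), spanned the HOXB cluster. It was 1 peak in H3K27me3 replicate 1 and 62 and 109 peaks in replicates 2 and 3, which covered 85.1% and 76.7% of it, so its width rests on replicate 1. The other 4 were likewise 1 peak each in replicate 1 and 15 to 137 and 42 to 160 peaks in replicates 2 and 3. They were at NANOG and SLC2A3 on chromosome 12 (394.9 kb, of which 0.395% was H3K27ac), at RBFOX3 (380.8 kb) and at SOX8 and CACNA1H (335.8 kb). The last of them, chr3:90918073-91249961, contained no protein-coding start, and the nearest gene, EPHA3, was 1436 kb away. It was the most split of the 5, into 137 and 160 peaks in replicates 2 and 3. How reliably reads were placed there was not tested.

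Chromosomes differed in which mark they favoured. Relative coverage of H3K27ac was above that of H3K27me3 in all lists on 7 of 23 chromosomes (2, 3, 4, 5, 9, 10 and 11, 30.4%) and below it in all lists on 9 (6, 7, 12, 13, 16, 18, 19, 20 and 21, 39.1%). The other 7 overlapped. Chromosome 19, with 25.3 gene starts per Mb, had relative coverage of 1.6 to 1.91 for H3K27ac and 2.73 to 4.20 for H3K27me3. Chromosome 21 had 0.615 to 0.690 and 1.53 to 1.73. Chromosome 11 had 1.11 to 1.18 and 0.603 to 0.719. Chromosome 22 had the highest relative coverage of H3K27ac (2.18 to 2.72), overlapping H3K27me3 (1.65 to 2.26), and X was low in both, at 0.295 to 0.330 and 0.224 to 0.509. With covered share as it is, H3K27me3 was above H3K27ac in all lists on 7 chromosomes and the other 16 overlapped. Over the 23 chromosomes, which share the libraries, rho with gene starts per Mb was 0.857 for H3K27ac and 0.741 for H3K27me3, and 0.765 between the marks. Copy number of KELLY chromosomes was not analysed here.

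**Figure D5:**
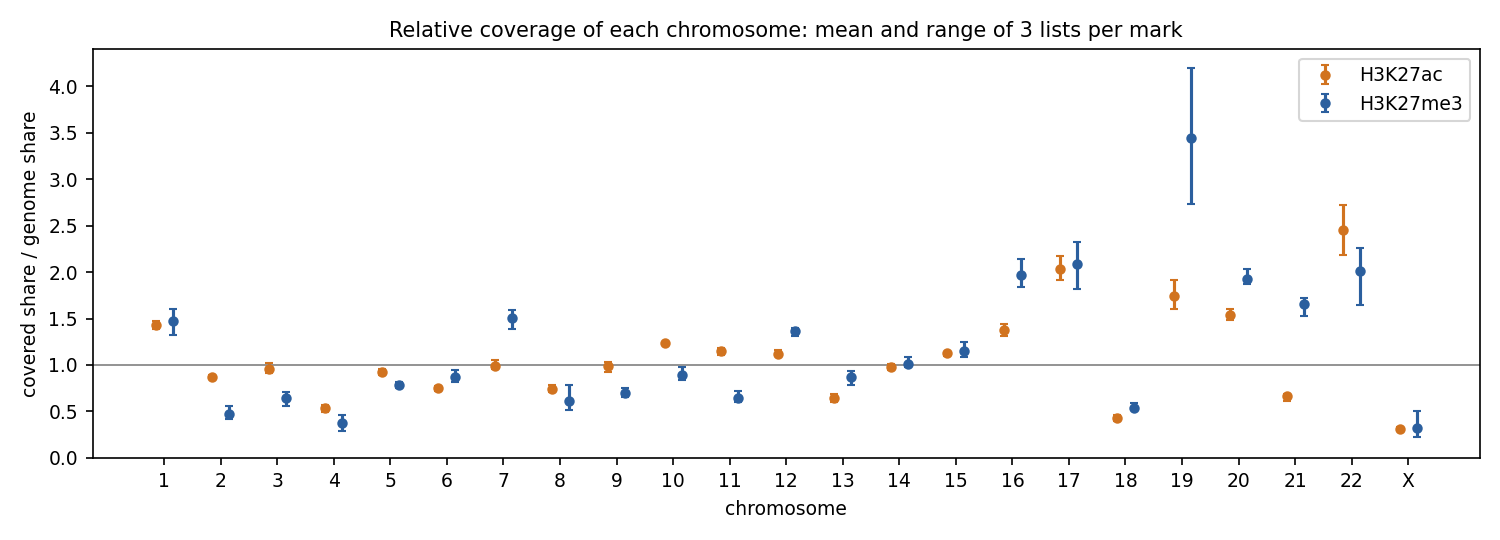
Relative coverage of each chromosome (covered share over that of chromosomes 1 to 22 and X) by H3K27ac and H3K27me3, as the mean and range of 3 lists. Chromosome 19 holds the highest relative coverage of H3K27me3, 2.73 to 4.20, above H3K27ac at 1.6 to 1.91, and X is low in both.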

How the data were processed

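ChIP-seq peak lists of H3K27ac and H3K27me3 in DMSO-treated KELLY cells were analysed, with H3K4me1, H3K4me2 and H3K4me3 lists of the same treatment as added readouts. The authors aligned reads to hg38 with Bowtie2, kept mapping quality of 30 or more and called peaks per library with MACS2 2.1.1.20160309. Per the file headers, H3K27ac, H3K27me3 and H3K4me1 were called in broad mode at q 0.05, linking at 0.1, and H3K4me2 and H3K4me3 narrowly at p 1e-05. The deposited −log10 q-value ranked and filtered peaks within a list. The deposited fold enrichment, a ratio from the authors' peak calls, sets ChIP against local input. These depend on depth and input, so lists were compared by the presence of peaks. Input read totals were 81.5 M for replicates 1 and 3, which may share an input, and 74.5 M for replicate 2, per the file headers. No input or read counts per region were used.

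Analyses used python 3.11.15, numpy 2.4.6, pandas 2.3.3, scipy 1.17.1 and GENCODE release 44. Intervals sharing at least 1 bp were merged, and distances were counted so that touching regions are 1 bp apart. Bins needed 50% sequenced bases. Interval functions were checked against bedtools 2.31.1 and tested on simulated data. Groups came from the labels. The mean log2 values or differences were tested by exact permutation, adjusted by Benjamini-Hochberg within each family. Correlations, distances, bins and promoter classes carry no test. The members, gene lists and comparisons were chosen with earlier results of these data known. Named items were chosen from all list members, the 5 widest regions, the 3 top bins and, per class, the 3 promoters with the highest mean percentile of −log10 q over lists (for both marks, the lower of the marks' means). Sequences were printed for the first gene of a class and the leading HOX genes whose RefSeq window carried a mark of the class. The printed windows therefore carry such a mark by choice, and the TYMP window carried H3K27me3 without H3K27ac. Some genes that this rule selects are not reported here.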

Additional observations from a re-analysis of the deposited data

How the results depend on the processing

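The excess of H3K27ac promoters, their higher CpG ratio, the lower gene-rich share of H3K27ac (-10.3 to -0.24 points), the count of H3K27ac-only promoters and the share of bins with higher H3K27ac kept their direction, or stayed within 1.5 times, under all 14 alternatives tried on each. For the promoter excess, the CpG ratio and the gene-rich share, the replicate block changes only the p-value, so it could not alter the direction. The lists of the marks overlapped in gene-rich share in the main setting (exact permutation p = 0.4). At 3 lists per mark no test could pass 0.05 under any setting. Leaving out 1 list gave log2 ratios of -0.67 to 0.036 for covered length, the positive value without H3K27me3 replicate 1, -0.86 to -0.20 for peak number and 0.27 to 1.37 for width. It gave a gene-rich difference of -5.71 to -0.24 points, rho at 1 Mb of 0.117 to 0.196, shares of regions meeting the other mark of 0.932% to 1.53% (H3K27ac) and 0.875% to 2.85% (H3K27me3), distances of 136 to 189 and 79.8 to 97.6 kb, and 877 to 1280 promoters with both marks.

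At a q of 0.001 or less, the log2 ratio was 0.55 for length, 1.45 for number and -0.33 for width, bins with higher H3K27me3 fell to 19.8%, promoters numbered 403 with both marks, 2013 with H3K27me3 only and 5263 with neither, 0.630% of H3K27ac and 4.67% of H3K27me3 regions met the other mark, and the distances were 462 and 48.3 kb. With lists cut to equal peak number the distances were 229.6 and 72.7 kb. With equal covered length the ratios were 1.91e-05 (length, by construction), 0.53 and -0.10, rho at 1 Mb was 0.208, promoters numbered 593 with both and 2263 with H3K27me3 only, shares were 0.757% and 5.12%, and distances 382 and 38.3 kb. The cause was not tested. Requiring 50% of the shorter region to be shared gave 0.784% and 1.39%. Bins of 100 kb and 5 Mb gave rho of -0.193 and 0.394, and 10, 50 and 500 kb bins, chosen after seeing the data (as was the consensus without each list), -0.213, -0.232 and 0.0115. Promoters with both marks numbered 1764 at 2.5 kb and 538 at the gene's 5′ end alone. Of 478 values of gene lists, chromosomes, gene-density classes and shared length, 452 stayed within their limits and 26 moved. Only the correlations within gene-density classes could reverse, and 0 did. Leaving out a list of a mark cannot change the gene-list counts of the other mark, so part of the 452 was fixed in advance.

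Replicate numbers were shared by the marks. Deviations of same-numbered lists from their mark's mean correlated at 0.0375, 0.280 and 0.0522, and those of differently numbered lists at -0.248 to 0.176. These few values cannot settle whether the numbers are pairs, and the main tests did not take them as pairs. With the number as a replicate block the log2 ratio of covered length was -0.43 and that of marked promoters 1.40, with exact p-values of 0.5 and 0.25 over 8 sign flips, of which 0.25 is the smallest, so no call changed. Weak H3K27me3 peaks, with a median −log10 q of 1.77 to 2.24 against 2.93 to 3.92 for H3K27ac, limit what a missing peak can say.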

Other observations

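Promoter classes varied between chromosomes. H3K27ac alone was at 70.5% of the 447 genes of chromosome 22 and 67.6% of the 601 of chromosome 15, but at 46.8% of the 220 of chromosome 21 and 47.5% of the 859 of X. H3K27me3 alone was at 29.1% of the genes of chromosome 21 and 24.4% of the 1476 of chromosome 19, against 13% on chromosome 22. Both marks were at 8.27% of the genes of chromosome 19 and 3.33% of those of chromosome 6. Neither mark was at 29.7% of the genes of X and 28.5% of the 1317 of chromosome 11, against 7.14% on chromosome 20. These shares were not tested.

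Genes also differed in length between classes. The median protein-coding gene spanned 33.2 kb with H3K27ac only, 47.7 kb with both marks, 18.1 kb with H3K27me3 only and 12.9 kb with neither. The median number of annotated starts was 7, 8, 3 and 2 in the same order, and a gene with more starts has more windows in which a mark can fall. The part of this in the class with both marks was not tested.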
